A study of Saccharomyces cerevisiae with 2 samples.

Results

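Sphingolipid synthesis was represented by 10 genes, LCB1, LCB2, TSC10, SUR2, LAG1, LAC1, SCS7, AUR1, CSG2 and IPT1, out of 5449 S. cerevisiae genes measured. They were chosen by name, as the probe sets whose platform annotation carries one of these symbols, and each gene had 1 probe set. RNA came from haploid yeast of the strain BY4742 (Mat alpha; his3Delta1; leu2Delta0; lys2Delta0; ura3Delta0), which was wild-type apart from these auxotrophic markers. One array was hybridized with RNA of cells on dietary restriction (DR, 0.5% glucose) and 1 array with RNA of cells fed ad libitum (AL, 2.0% glucose). Both cultures had 1% yeast extract and peptone, were started at an OD600 of 0.01 and were grown for 12 hours at 30°C to an OD600 of 0.85 to 0.99. The comparison asks which transcripts differ between restricted and unrestricted cells. Since each condition has 1 array, error cannot be estimated, so no test was run, no difference below has a replicate check, and every value describes these arrays only.

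Yeast makes its sphingolipids from serine and palmitoyl-CoA in the endoplasmic reticulum. Serine palmitoyltransferase joins these precursors, and a reductase and a hydroxylase turn the product into long-chain bases. Ceramide synthase then attaches a very long chain fatty acid, and in the Golgi the ceramide receives inositol phosphate and mannose to form the complex sphingolipids, which are abundant in the plasma membrane beside ergosterol. Long-chain bases and ceramides also act as signals in heat stress and growth control, and LAG1 takes its name from a longevity assurance screen in yeast.

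The signals are linear intensities that the authors' service laboratory had normalized, and ratios are given as the DR-labelled array over the AL-labelled array. Ratios made with the deposited labels run opposite to those that the study tabulates, so the label is given with every array below, and with the labels exchanged all signs would be turned. A background level was taken from 9 genes that this strain lacks or that alpha cells keep silent: its highest member, STE6, had a signal of 129.4 on the DR-labelled array and 281.6 on the AL-labelled array. The 4 alpha-specific genes ran from 5173.5 to 6278.1 on the DR-labelled array and from 222.6 to 1217.1 on the AL-labelled array. One of them, MF(ALPHA)2, an alpha-factor gene, lay under background on the AL-labelled array. The part of this difference in the values below was not tested.

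All 10 genes were well above these levels on both arrays, from 1321.4 to 5350.7 on the DR-labelled array and from 890.8 to 3323.5 on the AL-labelled array. For 6 of them the platform also carries a probe set with the same name in lower case that belongs to a gene outside the S. cerevisiae table. Those 6 probe sets gave 0.8 to 9.7 on the DR-labelled array and 0.5 to 3.0 on the AL-labelled array. The namesakes were thus near 0 on both arrays. The signals are relative within an array, so a smaller share of the RNA and fewer cells with the transcript cannot be told apart.

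Apart from LCB1, the genes of long-chain base synthesis had higher signals on the DR-labelled array, as had the ceramide synthase genes LAG1 and LAC1, while AUR1 and IPT1, at the end of the pathway, had higher signals on the AL-labelled array. LCB2 and SUR2 were past 2-fold that way, and no gene was past 2-fold the other way. TSC10 and LAC1 lay between 1.5-fold and 2-fold, and AUR1 stood apart in the opposite direction at 1.55-fold higher on the AL-labelled array. So 2 of 10 genes were past 2-fold higher on the DR-labelled array, against 20.5% of all genes, and 0 of 10 were past 2-fold higher on the AL-labelled array, against 24.3% of all genes. The first share is near that of all genes. The median log2 ratio of the 10 genes was 0.31, against −0.12 for all genes, and 51.6% of all genes had a ratio within the range the 10 genes span.

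**Figure D1:**
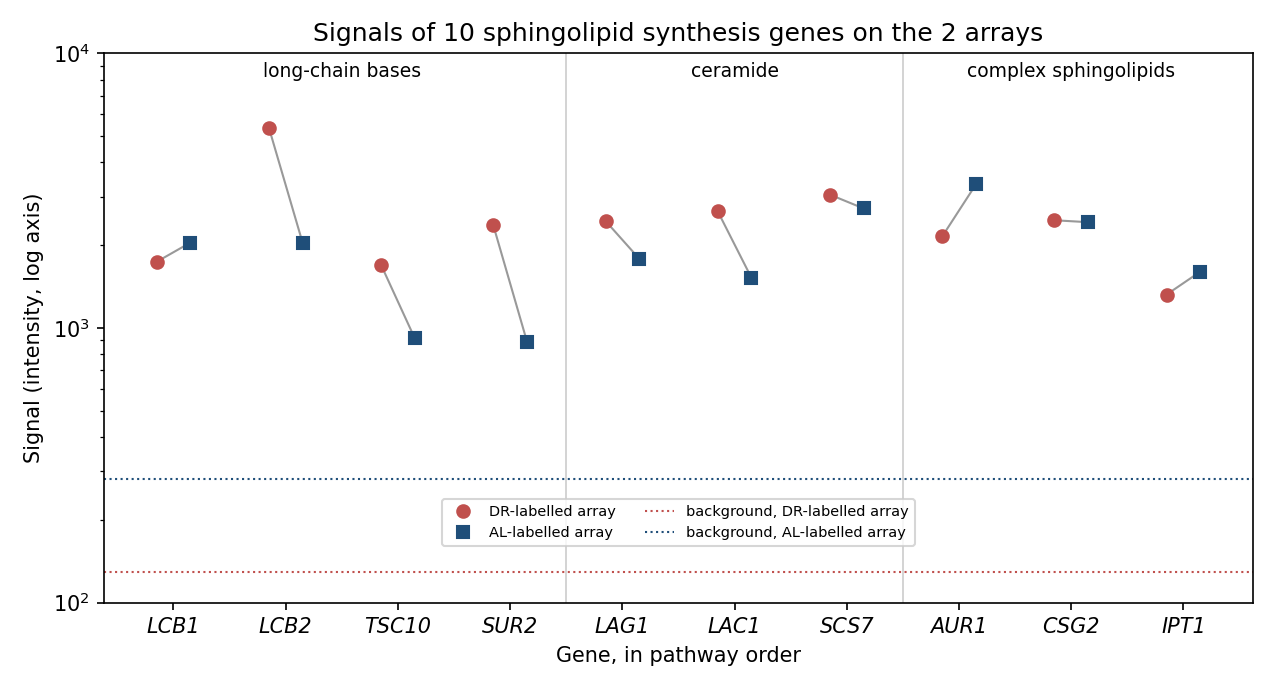
Signals of the 10 genes (intensity, log axis) on the DR-labelled array (circles) and the AL-labelled array (squares), in pathway order, with each array's background level as a dotted line; each point is 1 array, with no error bar. Lines join the values of 1 gene, since signals of different probe sets are not comparable; the steepest are those of LCB2 and SUR2, and AUR1 runs the other way.

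Long-chain base synthesis held both genes past 2-fold, which makes 2 of its 4 genes, against 20.5% of all genes. Higher on the DR-labelled array by any amount were 3 of the 4, against 2487 of all 5449 genes. The median log2 ratio of the 4 was 1.14. With 4 genes these counts are a description only. LCB2 (YDR062W, probe set 1770116_at), a subunit of serine palmitoyltransferase and the one that carries its cofactor, had a signal of 5350.7 on the DR-labelled array and 2041.5 on the AL-labelled array, a ratio of 2.62. Only 14.0% of all genes had a higher ratio. Its partner LCB1 (YMR296C, 1776857_at), with which it forms the catalytic heterodimer, had 1738.6 on the DR-labelled array and 2041.1 on the AL-labelled array, a ratio of 0.852. One subunit of the enzyme was thus higher and the other slightly lower on the DR-labelled array. Their log2 ratios, 1.39 for LCB2 and −0.23 for LCB1, differed by 1.62, or 3.08-fold.

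The steps that follow stood with LCB2. TSC10 (YBR265W, 1778279_at), the reductase that makes dihydrosphingosine, had 1692.4 on the DR-labelled array and 915.5 on the AL-labelled array, a ratio of 1.85. It lay just inside the 2-fold threshold, and its log2 ratio of 0.89 became 1.01 after median centring, 1.03 after quantile normalization and 1.09 once the trend of the ratio on signal was removed, which put it past 2-fold. SUR2 (YDR297W, 1771591_at), the hydroxylase that makes phytosphingosine, the main long-chain base of this yeast, had 2359.3 on the DR-labelled array and 890.8 on the AL-labelled array. Its ratio of 2.65 was the highest of the 10, with 13.7% of all genes above it, and with the labels exchanged it would be 0.378 and the lowest, with the same share of genes below it.

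The ceramide synthase paralogs LAG1 and LAC1 stood the same way, both within 2-fold. Either gene can supply the catalytic subunit that joins a long-chain base to a very long chain fatty acid. LAG1 (YHL003C, 1779126_at) had a signal of 2447.2 on the DR-labelled array and 1784.1 on the AL-labelled array, a ratio of 1.37. LAC1 (YKL008C, 1773853_at) had 2652.3 on the DR-labelled array and 1520.6 on the AL-labelled array, a ratio of 1.74. The log2 ratios, 0.46 for LAG1 and 0.80 for LAC1, differed by −0.35 (LAG1 minus LAC1, from unrounded values), so the ratio of LAC1 was 1.27 times that of LAG1. Of all genes, 32.6% had a higher ratio than LAG1 and 24.2% a higher ratio than LAC1. Without replicate arrays it cannot be said whether the paralogs differ beyond error.

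SCS7 (YMR272C, 1775846_at), which hydroxylates the fatty acid of ceramides, was nearly level. It had 3050.7 on the DR-labelled array and 2718.0 on the AL-labelled array, a ratio of 1.12. Its log2 ratio of 0.17 became 0.00 after quantile normalization and 0.01 once the trend on signal was removed.

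**Figure D2:**
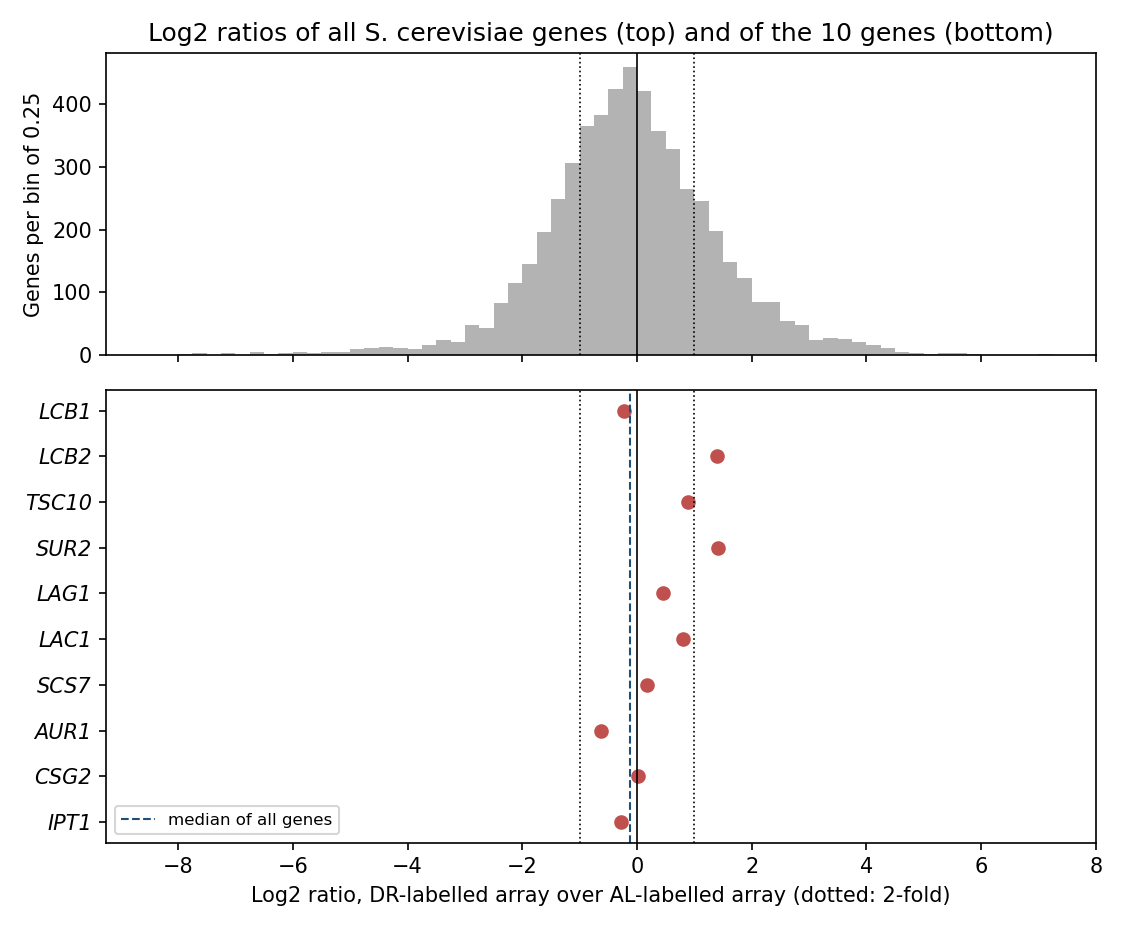
Top, number of genes in bins of 0.25 of the log2 ratio (DR-labelled array over AL-labelled array) for all 5449 S. cerevisiae genes; bottom, the log2 ratio of each of the 10 genes, 1 point per gene with no error bar. Dotted lines mark 2-fold and the dashed line the median of all genes at −0.12; the 10 genes run from −0.63 (AUR1) to 1.41 (SUR2), well inside the spread of all genes.

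The genes of the complex sphingolipids were level or higher on the AL-labelled array, with a median log2 ratio of −0.28 over 3 genes and none past 2-fold. AUR1 (YKL004W, 1773328_at) encodes the inositol phosphorylceramide synthase, an essential enzyme and the target of the antifungal aureobasidin A. It had 2149.5 on the DR-labelled array and 3323.5 on the AL-labelled array, a ratio of 0.647 and the lowest of the 10, which with the labels exchanged would be 1.55 and the highest. IPT1 (YDR072C, 1769606_at), which adds the last inositol phosphate, had 1321.4 on the DR-labelled array and 1601.2 on the AL-labelled array, a ratio of 0.825. CSG2 (YBR036C, 1774605_at), the partner protein of the mannosyltransferases, had 2462.4 on the DR-labelled array and 2422.6 on the AL-labelled array. Its log2 ratio of 0.02 turned to −0.07 after quantile normalization and −0.09 once the trend on signal was removed, so no direction is given for it.

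Along the pathway the median log2 ratio was thus 1.14 for long-chain base synthesis, 0.46 for ceramide synthesis and −0.28 for the complex sphingolipids. These stages hold 4, 3 and 3 genes and overlap, since LCB1, at −0.23, lay among the last of them. The split into stages was not among the planned comparisons and covers the 10 genes only. Of other genes at these steps, given below, TSC3 (log2 ratio −1.01) and KEI1 (0.39) went against this order. SUR1 (−0.50) and CSH1 (−1.13) went with it. From AUR1 to SUR2 the log2 ratios spanned 2.03, or 4.10-fold. Past 2-fold in either direction were 20.0% of the 10 genes, 44.8% of all genes, and 45.5% of the 1033 genes whose mean log2 signal lay in the range of the 10. With 10 genes these shares are a description only.

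**Figure D3:**
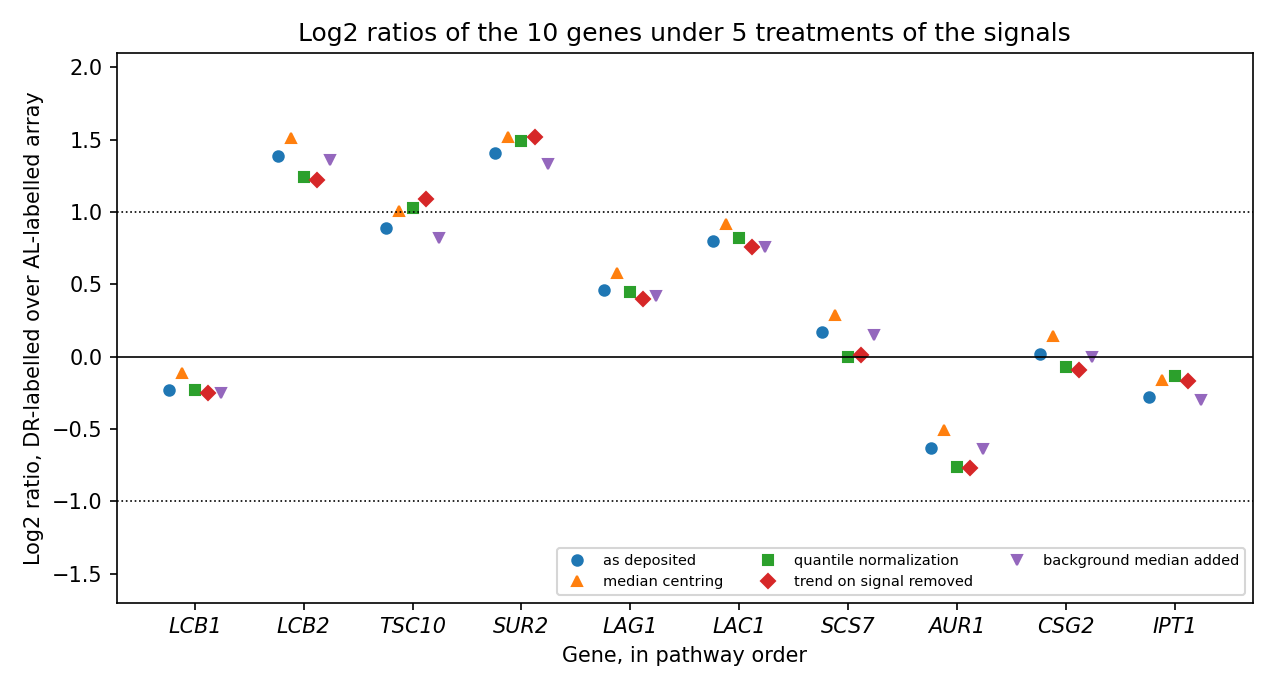
Log2 ratio (DR-labelled array over AL-labelled array) of each of the 10 genes with the signals as deposited, after median centring, after quantile normalization, with the trend on signal taken out, and with the median background signal added to each array; dotted lines mark 2-fold. LCB2 and SUR2 stay above 1 in all 5, TSC10 lies on both sides of 1, and CSG2 lies on both sides of 0.

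Other genes that act on the pathway were mostly within 2-fold, counting YSR3, AVO1 and BIT61, which lay under background on both arrays. Over 28 genes in 4 lists the median log2 ratio was 0.00, with 1 gene (3.57%, against 20.5% of all genes) past 2-fold higher on the DR-labelled array and 8 (28.6%, against 24.3% of all genes) higher on the AL-labelled array. The second share is near that of all genes. Among the 3 regulators of serine palmitoyltransferase (median log2 ratio −0.68), TSC3, its small activating subunit, had 386.1 on the DR-labelled array and 779.0 on the AL-labelled array. This 2.02-fold difference fell back inside 2-fold under each of the scalings (a log2 ratio of −1.01 as deposited, −0.89 after median centring, −0.81 after quantile normalization and −0.70 once the trend was removed). ORM1, which encodes an inhibitor of the enzyme, had 1055.0 on the DR-labelled array and 923.6 on the AL-labelled array, and its paralog ORM2 had 3127.0 on the DR-labelled array and 5026.6 on the AL-labelled array. Neither inhibitor was past 2-fold, ORM1 being slightly higher and ORM2 lower on the DR-labelled array.

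Genes whose products work together with those of the 10 genes went both ways. Their log2 ratios ran from −1.13 to 0.39, with a median of −0.10 over 4 genes. LIP1, the small subunit of ceramide synthase, had 1827.4 on the DR-labelled array and 1484.4 on the AL-labelled array. Its ratio was 1.23, against 1.37 for LAG1 and 1.74 for LAC1. KEI1, the partner of Aur1, had 685.4 on the DR-labelled array and 523.1 on the AL-labelled array, a ratio of 1.31 against 0.647 for AUR1. The mannosyltransferases that bind Csg2 were both higher on the AL-labelled array. SUR1 (CSG1) had 2666.3 on the DR-labelled array and 3762.5 on the AL-labelled array. CSH1 had 484.5 on the DR-labelled array and 1062.2 on the AL-labelled array, a 2.19-fold difference that came to a log2 ratio of −0.92 after quantile normalization and −0.80 once the trend was removed.

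Among 9 genes of breakdown, phosphorylation and export, 1 (11.1%) was past 2-fold in each direction. Of all genes, 20.5% were past 2-fold higher on the DR-labelled array and 24.3% on the AL-labelled array. Their median log2 ratio was 0.27, with YSR3, under background on both arrays, counted. RSB1, which moves long-chain bases out of the cell, had 532.6 on the DR-labelled array and 119.9 on the AL-labelled array. The second value lay under background, and with it raised to background the ratio of 4.44 became 1.89. ISC1, which splits inositol phosphate from complex sphingolipids and so returns ceramide, had 595.4 on the DR-labelled array and 1614.3 on the AL-labelled array, 2.71-fold higher on the AL-labelled array. DPL1, the lyase that ends long-chain base breakdown, had 2065.9 on the DR-labelled array and 1074.4 on the AL-labelled array, a ratio of 1.92, and was past 2-fold (log2 ratio 1.03 to 1.06) under the same scalings as TSC10. The ceramidase YPC1 had 1538.8 on the DR-labelled array and 2853.9 on the AL-labelled array, while its paralog YDC1 had 2855.7 on the DR-labelled array and 2783.4 on the AL-labelled array. The long-chain base kinase genes LCB4 (ratio 1.21) and LCB5 (1.25) and the phosphatase gene LCB3 (0.972) were near level, LCB5 being under background on the AL-labelled array, and the phosphatase gene YSR3 lay under background on both arrays.

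Of 12 genes for the protein kinases and the TORC2 complex that govern this pathway, 0 were past 2-fold higher on the DR-labelled array (all genes 20.5%) and 5 on the AL-labelled array (all genes 24.3%). Their median log2 ratio was −0.32, with AVO1 and BIT61, under background on both arrays, counted. TORC2 is a kinase complex at the plasma membrane that acts through Ypk1. SLM1, whose product recruits Ypk1 to TORC2, had 701.7 on the DR-labelled array and 3677.5 on the AL-labelled array, a 5.24-fold difference. Its paralog SLM2 had 322.7 on the DR-labelled array and 810.4 on the AL-labelled array. PKH2, one of the kinases that phosphorylate Ypk1 and respond to long-chain bases, had 325.8 on the DR-labelled array and 1507.8 on the AL-labelled array, and its paralog PKH1 had 607.1 on the DR-labelled array and 2329.4 on the AL-labelled array. AVO2, a TORC2 subunit, was the fifth, with 208.6 on the DR-labelled array and 769.3 on the AL-labelled array. YPK1 itself, the kinase that relieves Orm inhibition, stood the other way, at 1602.4 on the DR-labelled array and 903.7 on the AL-labelled array. It lay within 2-fold as deposited (log2 ratio 0.83). It was just past 2-fold after quantile normalization (1.00 when rounded) and past it once the trend on signal was removed (1.05). The others were YPK2 (ratio 1.09), TOR2 (0.977), TSC11 (1.23, with its signal under background on the AL-labelled array), LST8 (0.660), and AVO1 and BIT61, both under background on both arrays, so the core kinase gene TOR2 was near level.

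**Figure D4:**
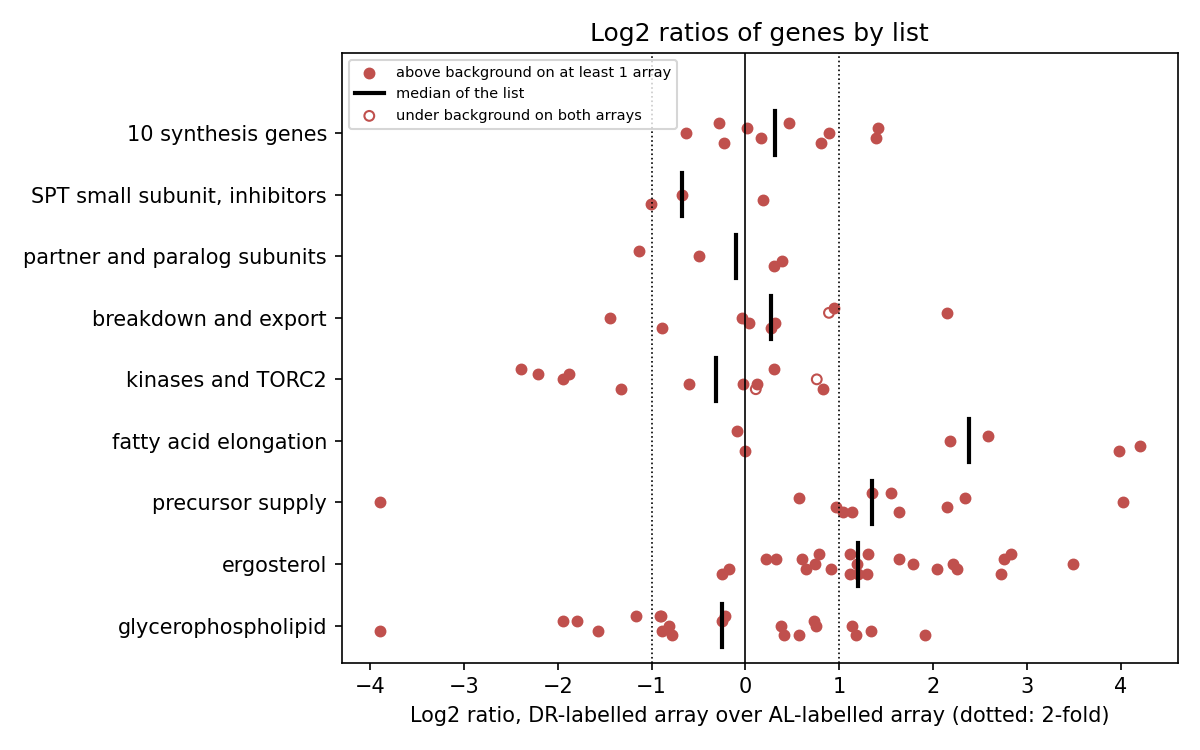
Log2 ratio (DR-labelled array over AL-labelled array) of each gene by list, with the list median as a black bar; filled points are genes above background on at least 1 array, open points genes under it on both, and dotted lines mark 2-fold. The 10 synthesis genes have a median of 0.31, against 2.38 for fatty acid elongation, 1.35 for precursor supply, 1.19 for ergosterol and −0.25 for glycerophospholipids.

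Genes that supply the pathway were further apart between the arrays than the 10 genes themselves. Of 6 genes for the very long chain fatty acids of ceramide, 4 were past 2-fold higher on the DR-labelled array (all genes 20.5%) and 0 on the AL-labelled array (all genes 24.3%), with a median log2 ratio of 2.38 (all genes −0.12). They were both elongase genes, ELO2 (ratio 15.8) and ELO3 (18.4), and the genes of the reductase IFA38 (4.53) and the dehydratase PHS1 (5.97) of the elongation cycle, with ELO2 and ELO3 under background on the AL-labelled array, so that their ratios are at least 6.91 and 14.3. TSC13, the enoyl reductase of the same cycle, was level at 3779.3 on the DR-labelled array and 4016.8 on the AL-labelled array, as was ACB1, the acyl-CoA binding protein, at 2256.8 on the DR-labelled array and 2254.9 on the AL-labelled array.

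Of 11 genes for the other precursors, 8 were past 2-fold higher on the DR-labelled array (all genes 20.5%) and 1 on the AL-labelled array (all genes 24.3%), with a median log2 ratio of 1.35. All 4 genes of serine synthesis were among the 8. SER3, a phosphoglycerate dehydrogenase of the first step, had 6989.2 on the DR-labelled array and 430.0 on the AL-labelled array, and its paralog SER33 had 2172.1 on the DR-labelled array and 429.4 on the AL-labelled array. SER2 (ratio 4.45) and SER1 (2.21) followed. The fatty acid synthase genes FAS1 (2.56) and FAS2 (2.06) and the GDP-mannose genes PSA1 (2.93) and VRG4 (3.11) made up the rest, while ACC1, the acetyl-CoA carboxylase (1.94), and PIS1, the phosphatidylinositol synthase (1.48), lay within 2-fold. SER1 and FAS2 came inside 2-fold after quantile normalization (log2 ratios 0.94 and 0.83) and once the trend was removed (0.96 and 0.84). ACC1 went past it after median centring (1.08). INO1, the inositol-3-phosphate synthase, stood far the other way with 72.6, under background, on the DR-labelled array and 1085.2 on the AL-labelled array, at least 8.39-fold with the lower signal raised to background.

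Beside other membrane lipids, the median of the 10 genes stood between those of ergosterol and glycerophospholipid synthesis. Of 24 ergosterol genes, 15 were past 2-fold higher on the DR-labelled array (all genes 20.5%) and 0 on the AL-labelled array (all genes 24.3%), with a median log2 ratio of 1.19. ERG3 (log2 ratio 3.49) and ERG5 (2.83) lay under background on the AL-labelled array, which makes their differences at least 8.04-fold and 4.72-fold and leaves ERG5 without a place in the order, since ERG4 (2.76), above background on both arrays and named after its value was seen, exceeds its bound. The lowest were ERG7 (−0.18, and 0.02 after quantile normalization) and ERG1 (−0.25). Of 21 glycerophospholipid genes, which include PIS1 and INO1, 4 were past 2-fold higher on the DR-labelled array and 5 on the AL-labelled array (median −0.25). These counts are near the shares of all genes, 20.5% and 24.3%. CHO2 had a log2 ratio of 1.34, and EPT1 one of 1.91 that came to 0.88, inside 2-fold, with its AL signal raised to background. INO4 (−1.94) and INO1 (−3.90) were at the bottom. With 1 array per condition, the difference between these lists and the 10 genes was not tested.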

How the data were processed

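Affymetrix GeneChip Yeast Genome 2.0 arrays were hybridized with biotin-labelled material, 1 array per condition. The deposited values are linear intensities, 1 per probe set, normalized by the authors' service laboratory with the Affymetrix statistical algorithms. Which version, target level and scaling were used is not given in the sources used here, while precision is limited by the number of arrays. Of 10928 probe sets, 7244 carried 1 gene symbol, 1 several and 3683 none. Of those with 1 symbol, 5498 matched the RefSeq table of S. cerevisiae (assembly R64) by gene ID. Log2 signals were averaged where a gene had several probe sets, giving 5449 genes.

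For each gene the log2 ratio (DR-labelled over AL-labelled array) was computed and counted past 2-fold, the threshold of the study's methods. No test was run. Background on each array was the highest signal among 9 genes deleted in the strain or silent in alpha cells. The genes and lists were chosen with earlier results of these data known. Named are all genes of the lists, except for ergosterol and glycerophospholipids the 2 highest and 2 lowest ratios among genes above background on at least 1 array.

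Alternatives were median centring, quantile normalization, subtraction of a lowess trend (span 0.3) on mean signal, raising low signals to background, adding the median background signal (24.6 on the DR-labelled array and 57.6 on the AL-labelled array), the brightest probe set per gene, fold thresholds of 1.5 and 3, and a mean in place of the median. A lower background (the 95th percentile of probe sets whose named gene is not in the S. cerevisiae table, 11.7 on the DR-labelled array and 11.5 on the AL-labelled array), the difference of LCB2 and LCB1, and the genes of like mean signal were added after the values were seen. Ratios and alternatives were run on simulated arrays in which some genes had known fold changes. The simulated arrays did not differ in background or scale, so they checked the code only. A planned search of promoters and an alignment of the LAG1 and LAC1 proteins were not run. The tools were statsmodels 0.14.6, matplotlib 3.10.9, pandas 2.3.3 and numpy 2.4.6 under Python 3.11.15.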

Additional observations from a re-analysis of the deposited data

How the results depend on the processing

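Of 70 log2 ratios of the 10 genes under the alternatives, 65 kept their direction and their side of 2-fold, 3 (TSC10) crossed it and 2 (CSG2, −0.07 after quantile normalization and −0.09 without the trend on signal) changed direction. The 65 include values that could not change. Each of the 10 genes had 1 probe set and lay above background on both arrays. The brightest probe set and both background levels used for raising therefore returned the deposited ratios. Past 1.5-fold in place of 2-fold, 4 of the 10 genes were higher on the DR-labelled array and 1 on the AL-labelled array. Past 3-fold, 0 were higher on the DR-labelled array. The shares of all genes past 1.5-fold and 3-fold are not given here, so these counts are a description only. The median log2 ratio of the 10 genes lay between 0.21 and 0.43, LAG1 minus LAC1 between −0.36 and −0.34, and LCB2 minus LCB1 between 1.46 and 1.62. The 2 differences could not change under median centring, the brightest probe set or raising to background. Among 200 counts and medians of the other lists, 173 kept their direction and side of 2-fold or stayed within 1.5 times, and 24 counts moved further. There, the median of the partner and paralog subunits turned to 0.02 after median centring and that of breakdown, phosphorylation and export to −0.04 with low signals raised to background, where the median of the kinases and TORC2 came to −1.12. This value is the log2 ratio of the 2 background levels. Every gene under background on both arrays takes it there, as AVO1 and BIT61 did among the kinases and TORC2 and YSR3 in the breakdown list. The 200 also include values that could not change. The lower background lay under every signal of these lists, the lowest being 57.5 for AVO1 on the AL-labelled array. It therefore returned the deposited values, and the brightest probe set returned them too. Raising low signals to background moved the share of 2-fold calls that were higher on the DR-labelled array to 30.5%, against 45.7% as deposited, since the background level was higher on the AL-labelled array. The cause of the other changes was not tested. No paired analysis was possible because each condition has 1 array.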

Other observations

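Paralogs of the sphingolipid pathway differed in how alike their ratios were. These pairs, all above background on both arrays, were picked after the values had been seen, and no test was run. The log2 ratios of PKH1 and PKH2 were −1.94 and −2.21. LAG1 and LAC1 stood 1.27-fold apart. Further apart were SUR1 and CSH1 (1.55-fold), YPK1 and YPK2 (1.63-fold), ORM1 and ORM2 (1.84-fold) and the ceramidase genes YPC1 and YDC1 (1.90-fold). SLM1 and SLM2 had log2 ratios of −2.39 and −1.33. Of the serine synthesis genes SER3 and SER33, which stood 3.21-fold apart, both were higher on the DR-labelled array.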
